A study of Canis lupus familiaris with 8 samples.

Results

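The genes encoded by the mitochondrial genome were examined in MDCK I cells, an epithelial line from dog kidney. All rows of the count table on the chromosome named MT were taken, which gave 37 of the 32704 genes in the table. Of these, 15 had a length over 200 bases and are called the long genes, and 22 were shorter. RNA was counted in 8 libraries, 2 in each of 4 groups, with 34564103 to 46043788 counts per library. Cells of the group Neg-siRNA (300 mOsm), here the isosmotic controls, were kept in isosmotic medium. Medium made hyperosmotic with raffinose for the last 24 h was given to the group Neg-siRNA (500 mOsm), here the hyperosmotic controls, and also to the groups named Nfat5-1-siRNA (500 mOsm) and, for the other siRNA, Nfat5-2-siRNA (500 mOsm). All groups received 100 nM of an siRNA, so the controls were transfected too. The Neg-siRNA was directed at Slc22a6, a transporter gene that the methods describe as not expressed in these cells. Nfat5-1-siRNA and Nfat5-2-siRNA are different siRNAs to the mRNA of NFAT5, a transcription factor of the response to hypertonic stress. Replicate 1 came from passage 15 and replicate 2 from passage 17 in each group, so the p-values below measure the spread between passages of 1 cell line. Those from fits with the passage as a block are the exception, since these fits take out the difference that the passages share over the groups. The count table gives identifiers without gene symbols, so nuclear genes could be named only by position or from a list of the study, and the markers that define kidney epithelium were not analysed here.

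Mitochondrial DNA is a small circular genome present in many copies per cell. It encodes core subunits of the respiratory chain and of ATP synthase, the rRNAs of the mitochondrial ribosome and a set of tRNAs, while the other mitochondrial proteins come from nuclear genes. Each strand is transcribed into long RNAs that carry several genes. The tRNAs lie between most of the mRNAs and rRNAs, and they are cut out to release them. Mitochondrial mRNAs are then given short poly(A) tails, with ND6 known as an exception, and mature tRNAs end in CCA without such a tail. The labels give the measured molecule as polyA RNA. Kidney epithelium depends on mitochondrial respiration to power its ion pumps.

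The table lists the genes by identifier only. They were named here from their order, strand and length, which for all 37 genes fitted the order shared by mammalian mitochondrial genomes. Positions are those of CanFam 3.1, and the table gives each gene as a single exon with no intron. The rRNA genes were 12S rRNA (ENSCAFG00000022709, bases 70 to 1023) and 16S rRNA (ENSCAFG00000022711, bases 1091 to 2670). Complex I, the NADH dehydrogenase of the respiratory chain, was represented by 7 genes. ND1 (ENSCAFG00000022713) spanned bases 2747 to 3703 and ND2 (ENSCAFG00000022717) bases 3914 to 4957. ND3 (ENSCAFG00000022732) spanned bases 9496 to 9842, ND4L (ENSCAFG00000022734) bases 9911 to 10207 and ND4 (ENSCAFG00000022735) bases 10201 to 11578. ND5 (ENSCAFG00000022739) spanned bases 11778 to 13598, and ND6 (ENSCAFG00000022740, bases 13582 to 14109) was the only long gene on the minus strand. Complex III, which passes electrons to cytochrome c, had CYTB (ENSCAFG00000022742, bases 14183 to 15322). Complex IV, the cytochrome c oxidase, had COX1 (ENSCAFG00000022723, bases 5349 to 6893), COX2 (ENSCAFG00000022726, bases 7034 to 7717) and COX3 (ENSCAFG00000022730, bases 8644 to 9427). ATP synthase had ATP8 (ENSCAFG00000022728, bases 7803 to 8006) and ATP6 (ENSCAFG00000022729, bases 7964 to 8644), whose ends overlap.

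Reads were counted without regard to strand, and reads that touched more than 1 gene were not counted. Sense and antisense RNA at a gene therefore cannot be told apart, nor can a mature tRNA and a longer RNA that runs through it. The counts for overlapping pairs (ATP8 and ATP6, ND4L and ND4, ND5 and ND6) miss the shared bases. Reads with several equally good positions were not counted either, which leaves out reads shared with nuclear copies of mitochondrial DNA. Levels below are counts per 1000000 (CPM) of the library total scaled by TMM, a normalization to the bulk of the genes, unless a share of the unscaled total is named.

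The mRNA of the siRNA target was inspected before the mitochondrial genes. By its position next to NQO1, the gene ENSCAFG00000020254 (chromosome 5, bases 80003598 to 80115099) was taken as NFAT5. It stood at 21.8 and 23.6 CPM in the isosmotic controls and at 85.9 and 78.5 CPM in the hyperosmotic controls. The libraries labelled Nfat5-1-siRNA had 103.6 and 88.1 CPM, and those labelled Nfat5-2-siRNA had 72.2 and 73.5 CPM. The target mRNA was therefore not called lower in the libraries labelled Nfat5-1-siRNA (log2 fold change 0.22 ± 0.14, SE; edgeR adjusted p = 1) or Nfat5-2-siRNA (-0.17 ± 0.14; edgeR adjusted p = 1), so the mRNA level gives no check of these labels. The study also measured NFAT5 protein by immunoblotting, which was not analysed here. AKR1B1, the aldose reductase that makes sorbitol and a known NFAT5 target, had log2 fold changes of -2.21 ± 0.23 and -2.10 ± 0.23 in these libraries (edgeR adjusted p = 0.000532 and adjusted p = 0.000418). Its identifier comes from a list that the study chose on these samples, so this is not independent evidence.

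Mitochondrial genes took between 4.34% and 6.52% of all counts in a library. The share was 5.67% and 6.52% in replicates 1 and 2 of the isosmotic controls. It was 4.39% and 5.87% in the hyperosmotic controls. In the libraries labelled Nfat5-1-siRNA it was 4.34% and 4.44%, and in those labelled Nfat5-2-siRNA 4.36% and 4.65%. Passage 17 was above passage 15 in all 4 groups. The means with SD (n = 2) were 6.10% ± 0.60, 5.13% ± 1.05, 4.39% ± 0.071 and 4.51% ± 0.21 in this order of groups. Neighbouring groups in this order overlapped, and the exact two-sided permutation test gave p = 0.667 for the hyperosmotic controls against the isosmotic controls and for each Nfat5-siRNA against the hyperosmotic controls. With 2 libraries against 2 this test cannot go below 0.333. Against the hyperosmotic controls the means differed by -0.733 percentage points with Nfat5-1-siRNA and by -0.621 with Nfat5-2-siRNA. Within passage 15, a split added after the values were seen, the differences were -0.043 and -0.028 points, and within passage 17 they were -1.42 and -1.21 points. Without replicate 2 of the hyperosmotic controls, which sets both passages against passage 15 alone, they were 0.0072 and 0.120. The outcome depended on the scaling. As a share of the TMM-scaled totals, mitochondrial genes took 4.97% and 6.46% in the hyperosmotic controls, 4.30% and 4.27% with Nfat5-1-siRNA and 3.89% and 4.304% with Nfat5-2-siRNA. On this scale neither Nfat5-siRNA group overlapped with the hyperosmotic controls, with differences of -1.43 and -1.62 points and an exact permutation p = 0.333 for both, the smallest possible. Without replicate 2 of the hyperosmotic controls these were -0.686 and -0.871 points. The hyperosmotic controls differed from the isosmotic controls by -0.465 points on this scale and by -0.972 on unscaled totals, with overlap on both. Split by passage, this difference was -0.714 points in passage 15 and -0.215 in passage 17 on the TMM scale. On unscaled totals it was -1.29 and -0.656 points, so the share was lower in both passages on both scales. A count of this size leaves little counting error: the Wilson 95% interval of the lowest share, 4.34%, ran from 4.338% to 4.350%. RNA from a bulk culture cannot separate fewer mitochondria or fewer cells from less RNA in each, and mitochondrial DNA was not measured.

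Nearly all of these counts lay in the mRNA genes. The 13 mRNA genes took 5.34% and 5.84% of the counts in the isosmotic controls and 4.199% and 5.61% in the hyperosmotic controls. They took 4.19% and 4.30% in the libraries labelled Nfat5-1-siRNA and 4.16% and 4.46% in those labelled Nfat5-2-siRNA, so replicate 1 of the hyperosmotic controls fell within the range of the Nfat5-siRNA libraries. The group means of the 2 rRNA genes came in the same order as those of the mRNA genes. The rRNA share was 0.302% and 0.637% in the isosmotic controls and 0.161% and 0.217% in the hyperosmotic controls. It was 0.134% and 0.115% with Nfat5-1-siRNA and 0.182% and 0.173% with Nfat5-2-siRNA. The isosmotic controls was the highest group, and its replicates differed from each other by more than those of any other group. The 22 tRNA genes together held 0.0322% and 0.0486% of the counts in the isosmotic controls, 0.0273% and 0.0420% in the hyperosmotic controls, 0.0243% and 0.0253% with Nfat5-1-siRNA and 0.0219% and 0.0244% with Nfat5-2-siRNA. For the tRNA genes the exact permutation test of either Nfat5-siRNA against the hyperosmotic controls gave p = 0.333, the smallest value it can give.

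**Figure D1:**
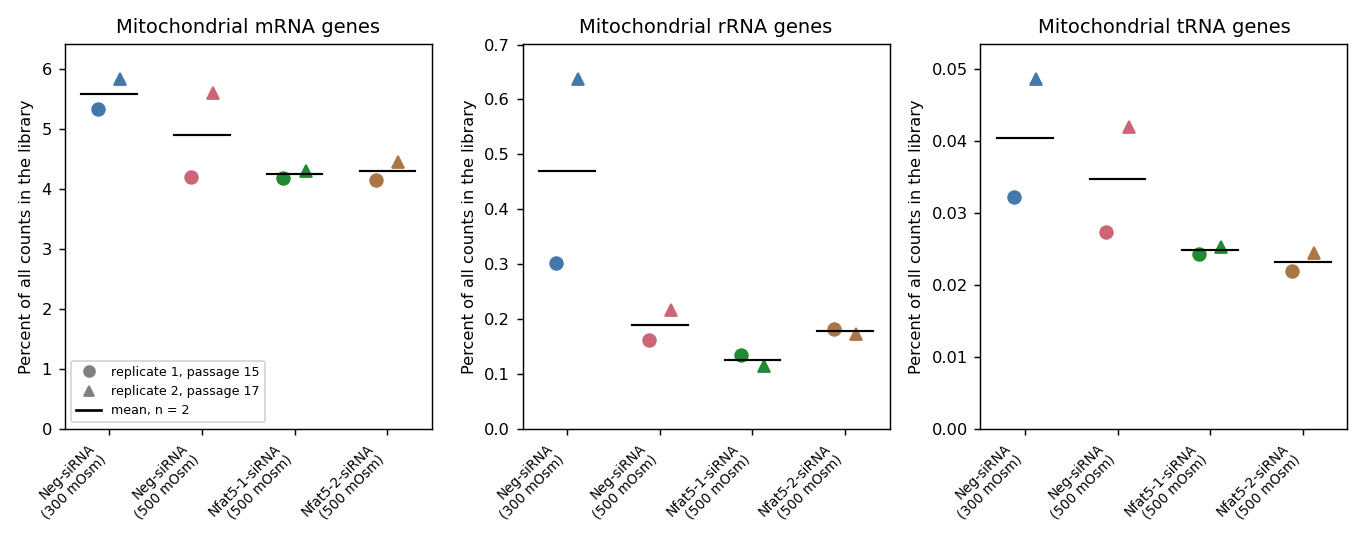
Share of all counts in each library that lay in the mitochondrial mRNA, rRNA and tRNA genes, in percent. Circles are replicate 1 (passage 15), triangles replicate 2 (passage 17) and bars the mean of 2 libraries. The rRNA share of replicate 2 of Neg-siRNA (300 mOsm), 0.637%, stands above the other 7 libraries, and the mRNA share of replicate 1 of Neg-siRNA (500 mOsm), 4.199%, lies among those of the Nfat5-siRNA libraries.

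The levels of the mRNAs spanned 658 to 11387 CPM per kb, with the complex IV and ATP synthase mRNAs above those of complexes I and III. Per kilobase of gene and averaged over the 8 libraries, COX1 was the highest at 11387 CPM per kb, followed by COX3 at 9957, ATP6 at 9151, COX2 at 7003 and ATP8 at 4118 CPM per kb. COX1 is the catalytic subunit of cytochrome c oxidase, and COX2 takes up the electrons from cytochrome c. The ranges of COX1 (8057 to 15893 CPM per kb) and COX3 (7616 to 12972) overlapped over the libraries, as did those of COX3 and ATP6. The complex I mRNAs were lower, from ND4 at 2359 and ND1 at 2207 CPM per kb to ND5 at 907 and ND6 at 767. CYTB, the only complex III subunit encoded here, was the lowest mRNA at 658 CPM per kb. 12S rRNA stood at 1151 and 16S rRNA at 841 CPM per kb, below the median of the mRNA genes (2207). The measured molecule was polyA RNA, so these are not the amounts of rRNA relative to mRNA in the cells. Complex IV mRNAs made up between 56.8% and 65.5% of the mitochondrial mRNA counts of a library, ATP synthase mRNAs between 12.7% and 18.4%, complex I mRNAs between 19.5% and 22.7% and CYTB between 1.16% and 2.13%.

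The tRNA genes split by strand. Over the 8 libraries, the 8 tRNA genes on the minus strand held between 91.9% and 95.0% of all tRNA counts, and the 14 on the plus strand held the rest. tRNA-Ser(UCN) (ENSCAFG00000022724, bases 6891 to 6961), which follows COX1 on the map, had the most. It averaged 1882 CPM per kb and held between 34.7% and 50.1% of the tRNA counts. Next came 4 neighbouring minus-strand genes between ND2 and COX1. They were tRNA-Ala (ENSCAFG00000022719, bases 5037 to 5105) at 644, tRNA-Asn (ENSCAFG00000022720, bases 5107 to 5178) at 526, tRNA-Cys (ENSCAFG00000022721, bases 5212 to 5279) at 525 and tRNA-Tyr (ENSCAFG00000022722, bases 5280 to 5347) at 274 CPM per kb. Each of these tRNAs carries the amino acid of its name to the mitochondrial ribosome. tRNA-Gln was the exception on the minus strand, at 10.4 CPM per kb. The plus-strand genes ran from 0.920 CPM per kb for tRNA-Phe, beside 12S rRNA, to 68.8 for tRNA-Trp, with a median of 12.97 CPM per kb against 399 on the minus strand. For tRNA-Val, which lies between the rRNAs, the libraries had 0 to 10 counts. The count of 0 in replicate 2 of Nfat5-1-siRNA allows a level of up to 0.0638 CPM (3 counts), for counting error only.

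These tRNA levels are not the amounts of tRNA in the cells. With reads of 51 bases, only 10 to 25 positions leave a read wholly inside a tRNA gene, against 154 to 1771 inside an mRNA gene, and reads reaching into a neighbouring gene were not counted. These positions only approximate where a read could count. Reads reaching into bases outside any gene, such as the 33 between tRNA-Asn and tRNA-Cys, could still count. Reads on the bases shared by ATP8 and ATP6 could not. Per kilobase, the median tRNA gene stood at 0.0116 of the median mRNA gene. Per position of a whole read it stood at 0.0413. The tRNA genes on the minus strand lie opposite the plus-strand RNA, and without strand the tRNA and that RNA cannot be told apart.

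**Figure D2:**
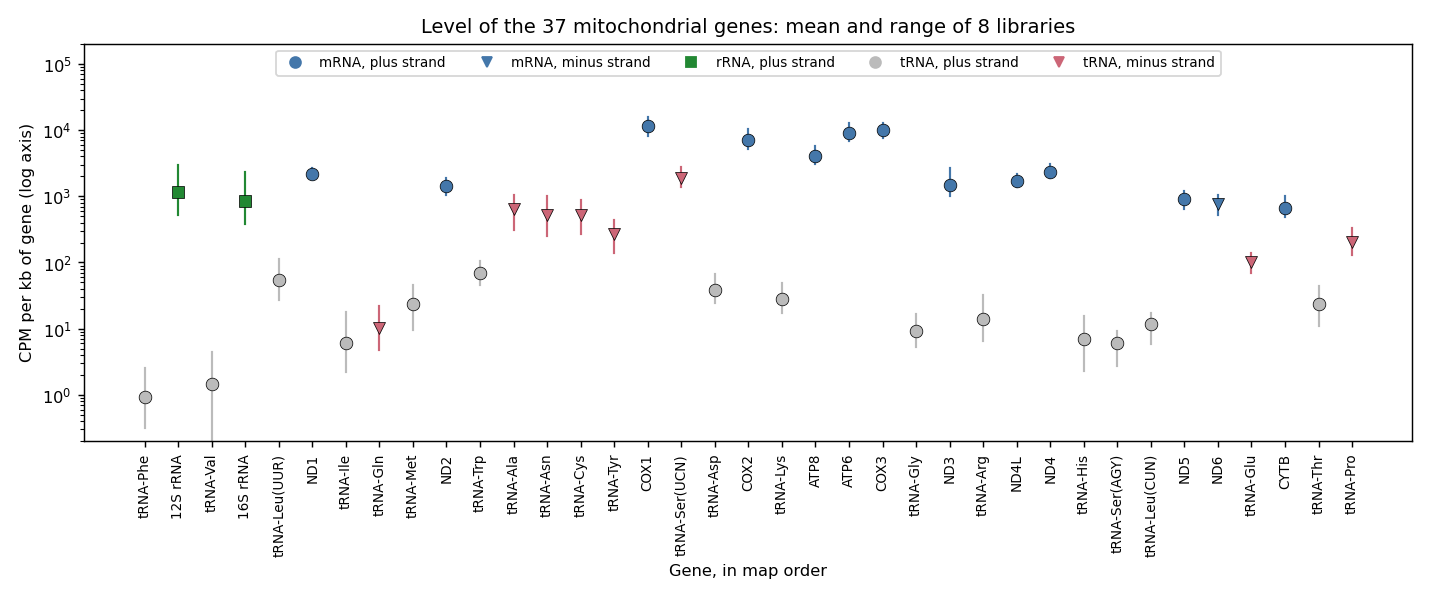
Level of the 37 mitochondrial genes in map order, as CPM per kilobase on a log axis. Symbols are means of 8 libraries and lines run from the lowest to the highest library (for tRNA-Val the lowest is 0, and the line is clipped at the axis). The plus-strand tRNA genes lie below the mRNA and rRNA genes, and the minus-strand tRNA genes other than tRNA-Gln lie above every plus-strand one, with tRNA-Ser(UCN) highest at 1882 CPM per kb.

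Hyperosmolality was addressed by comparing the hyperosmotic controls with the isosmotic controls. Of the 15 long genes, 12S rRNA, 16S rRNA and ND3 fell, none rose, and the other 12 did not pass the test (edgeR quasi-likelihood test, Benjamini-Yekutieli adjusted p under 0.05). Over all 19835 genes tested, 9.23% were called lower. The median log2 fold change of the 13 mRNA genes was -0.14, beside 0.0040 over all genes tested. The same control libraries at 500 mOsm enter the comparisons with both Nfat5-siRNAs below, so the 3 comparisons are not independent of each other.

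ND3, a small membrane subunit of complex I, changed the most among the mRNAs. It was at 939 and 797 CPM in the isosmotic controls and at 376 and 491 CPM in the hyperosmotic controls, and the groups did not overlap. The log2 fold change was -1.003 ± 0.17 (SE; edgeR adjusted p = 0.00469). Without replicate 1 of the hyperosmotic controls ND3 changed by -0.88 and was no longer called (edgeR adjusted p = 0.0610). COX3, whose gene precedes ND3 with only tRNA-Gly between them, was at 9267 and 9019.6 CPM at 300 mOsm and at 8084 and 10169.7 CPM at 500 mOsm, a log2 fold change of -0.0026 ± 0.17 (edgeR adjusted p = 1). The ratio of ND3 to COX3 counts, a pair chosen after their values were seen and independent of the scaling, was 0.101 and 0.0884 at 300 mOsm and 0.0465 and 0.0482 at 500 mOsm. In the libraries labelled Nfat5-1-siRNA it was 0.0524 and 0.0569, and in those labelled Nfat5-2-siRNA 0.0666 and 0.0686.

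The rRNAs, the RNA core of the mitochondrial ribosome, had lower levels at 500 mOsm in the polyA RNA that was measured. Total rRNA was not measured. 12S rRNA was at 1395 and 2839 CPM in the isosmotic controls and at 844 and 1112 CPM in the hyperosmotic controls, a log2 fold change of -1.11 ± 0.26 (edgeR adjusted p = 0.0478). 16S rRNA was at 1631 and 3682 CPM at 300 mOsm and at 977 and 1276 CPM at 500 mOsm, a log2 fold change of -1.24 ± 0.29 (edgeR adjusted p = 0.0441). The groups did not overlap, and the size of the fall rested on replicate 2 of the isosmotic controls. Without that library 12S rRNA changed by -0.51 and 16S rRNA by -0.53 on the log2 scale, and neither was called (edgeR adjusted p = 0.998 and adjusted p = 0.935). Without replicate 1 of that group they changed by -1.59 and -1.76. Leaving out either library of the hyperosmotic controls also ended both calls, with log2 fold changes from -0.98 to -1.49. Replicate 2 of the isosmotic controls had 10.9 rRNA counts per 100 mitochondrial mRNA counts, against 5.66 in replicate 1 and 2.67 to 4.39 in the 6 libraries at 500 mOsm.

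CYTB, the cytochrome b of complex III, was at 1139 and 962 CPM in the isosmotic controls and at 551 and 738 CPM in the hyperosmotic controls. The groups did not overlap, with a log2 fold change of -0.70 ± 0.17 that missed the threshold (edgeR adjusted p = 0.0558). With the passage as a block, which compares libraries of the same passage, CYTB was called lower too (edgeR adjusted p = 4.02e-05), which made 4 of the 15 long genes beside 15.8% of all genes called lower in that fit. DESeq2 with the same block called ND3 and CYTB lower and neither rRNA, beside 14.1% of all genes called lower.

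The other mRNAs changed little at 500 mOsm, and none was called. Among the complex I subunits that form the proton-pumping membrane arm, ND1 was at 2499 and 2430.15 CPM in the isosmotic controls and at 1962 and 2519 CPM in the hyperosmotic controls. ND2 was at 1944 and 1756 CPM and then at 1375 and 1543 CPM, with no overlap of the groups (log2 fold change -0.34 ± 0.16, edgeR adjusted p = 1). ND4L was at 629.6 and 604 CPM and then at 503 and 647 CPM. Of these, ND2 alone was lower in both passages with no overlap between the groups. ND4 was at 3738 and 3724 CPM at 300 mOsm and at 3329 and 4189 CPM at 500 mOsm, and ND5 at 1948 and 1956 and then at 1741 and 2215 CPM. ND6, encoded on the minus strand, was at 444 and 397 CPM at 300 mOsm and at 489.6 and 548 CPM at 500 mOsm (log2 fold change 0.30 ± 0.15, edgeR adjusted p = 1), the highest value among the long genes in this comparison. ND4 and ND5 lay on both sides of their values at 300 mOsm. The COX1 level was 15706 and 22019.6 CPM at 300 mOsm and 17433 and 24555 CPM at 500 mOsm, and that of COX2 was 5398 and 6989.7 and then 4803 and 5689 CPM. ATP8 was at 1177 and 1013 CPM and then at 846 and 972 CPM, and ATP6, the proton channel subunit of ATP synthase, at 8639 and 8059.6 CPM and then at 6055 and 7469.7 CPM. Both ATP synthase subunits were lower at 500 mOsm without overlap, by -0.27 ± 0.16 and -0.30 ± 0.17 on the log2 scale, which did not pass the test (edgeR adjusted p = 1 for both). In all, 7 of the 15 long genes had both hyperosmotic controls below both isosmotic controls, beside 32.2% of all genes tested, and 10 did on unscaled totals, beside 37.1%.

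**Figure D3:**
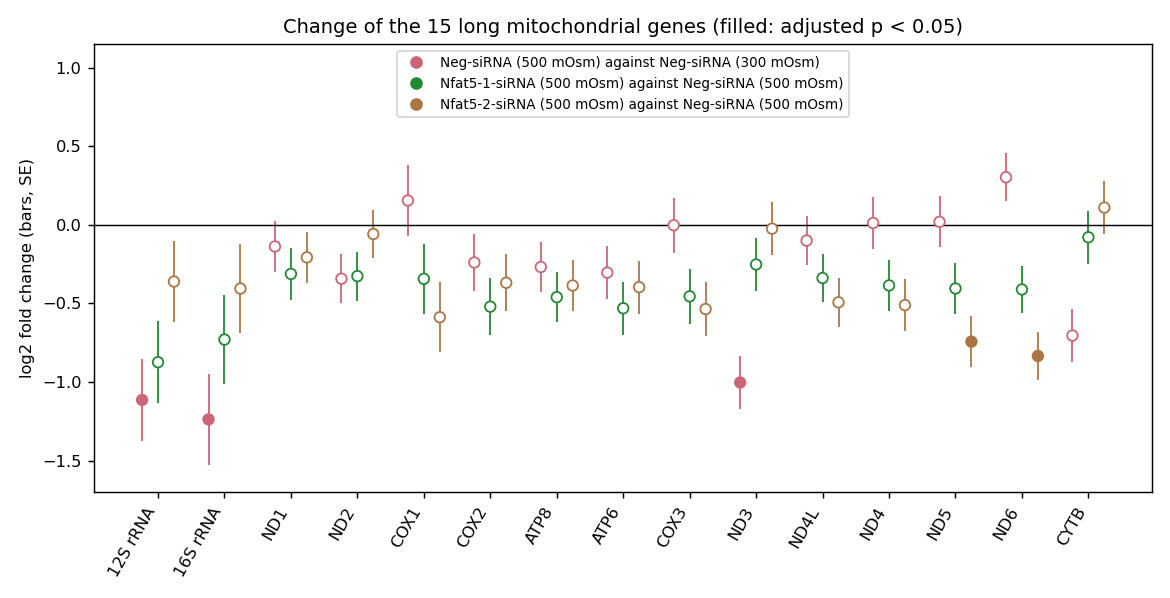
log2 fold change of the 15 long mitochondrial genes in 3 comparisons (edgeR, bars are SE, filled symbols have an adjusted p under 0.05). ND3 (-1.003), 12S rRNA (-1.11) and 16S rRNA (-1.24) are filled for hyperosmolality, and ND5 (-0.74) and ND6 (-0.83) for Nfat5-2-siRNA.

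**Figure D4:**
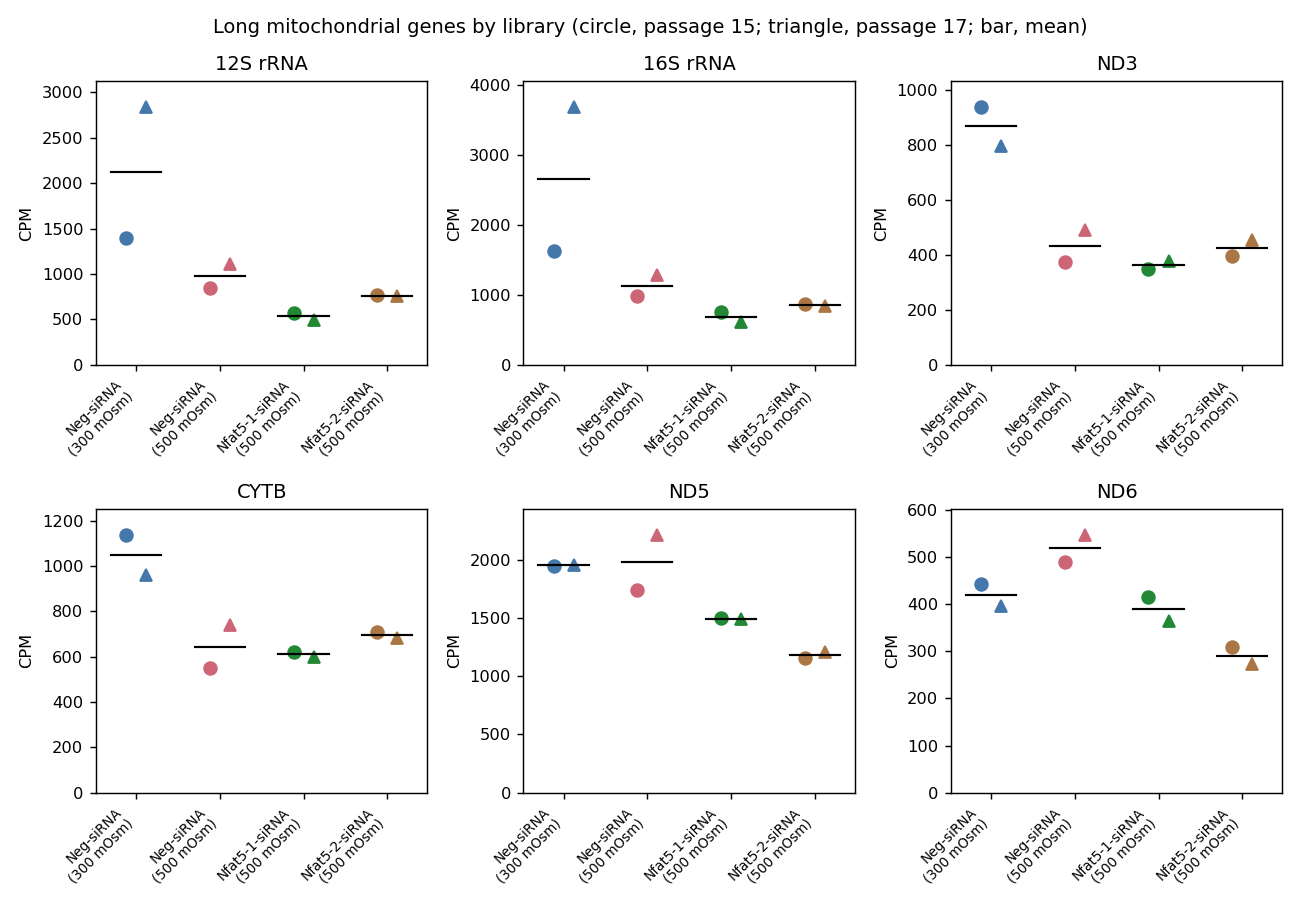
CPM of 6 long mitochondrial genes in each of the 8 libraries. Circles are replicate 1 (passage 15), triangles replicate 2 (passage 17) and bars the mean of 2 libraries. ND3 is lower in all 6 libraries at 500 mOsm than at 300 mOsm, the rRNAs are highest in replicate 2 of Neg-siRNA (300 mOsm), and ND5 and ND6 are lowest in the libraries labelled Nfat5-2-siRNA.

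None of the 22 tRNA genes was called between the osmolalities in the edgeR fit without the block, at a Benjamini-Yekutieli adjusted p under 0.05, TMM and the filter on low counts, and 3 had an unadjusted p under 0.05, beside 43.8% of all genes tested. DESeq2 called 1 lower, beside 11.5% of all genes. It was tRNA-Leu(UUR) (ENSCAFG00000022712, bases 2671 to 2744), a plus-strand gene between 16S rRNA and ND1 that is named here after its values were seen. In edgeR it was called on library totals without TMM, without the filter and with Benjamini-Hochberg adjustment. It had 269 and 284 counts at 300 mOsm and 86 and 155 at 500 mOsm, a log2 fold change of -1.21 ± 0.31 (edgeR adjusted p = 0.0743). With the passage block it was called lower (edgeR adjusted p = 0.000820), and tRNA-Pro (ENSCAFG00000022744, bases 15392 to 15457), also named after its values were seen, was called higher by 0.60 ± 0.18 (edgeR adjusted p = 0.0424), beside 17.3% of all genes called higher in that fit. The most counted tRNA genes did not pass the test. tRNA-Ser(UCN) was at 111.7 and 200.1 CPM in the isosmotic controls and at 136.6 and 198.2 CPM in the hyperosmotic controls, and tRNA-Ala at 52.9 and 71.2 and then at 46.6 and 70.1 CPM. tRNA-Asn was at 46.65 and 73.2 CPM and then at 32.9 and 55.4 CPM, tRNA-Cys at 44.4 and 60.7 CPM and then at 35.8 and 53.0 CPM, and tRNA-Tyr at 22.2 and 29.9 CPM and then at 17.8 and 30.02 CPM. For all 5 the groups overlapped and passage 17 was above passage 15 in both.

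The effect of the Nfat5-siRNAs at 500 mOsm was assessed against the hyperosmotic controls. In the libraries labelled Nfat5-2-siRNA, ND5 and ND6 fell among the 15 long genes and tRNA-Ala, tRNA-Cys and tRNA-Tyr among the 22 tRNA genes, while none rose (edgeR, adjusted p under 0.05). Over all genes tested, 7.38% were called lower in this comparison. In the libraries labelled Nfat5-1-siRNA no mitochondrial gene was called in this fit or by DESeq2 without the passage block. Among all genes tested, edgeR called 4.53% lower there and DESeq2 1303 of 19835. Some mitochondrial genes were called lower by edgeR without a filter on low counts (2 long and 3 tRNA genes, beside 1634 of 23048 genes tested). With Benjamini-Hochberg adjustment 2 long and 4 tRNA genes were called lower, beside 2226 of 19835 genes tested. Both tools called some with the block, described below. Of the 37 genes, 10 long and 6 short ones had an unadjusted p under 0.05 in the edgeR fit without the block, beside 31.9% of all genes tested. All 13 mRNA genes had a negative log2 fold change with Nfat5-1-siRNA and 12 with Nfat5-2-siRNA, with medians of -0.39 and -0.40, beside -0.072 and -0.031 over all genes tested.

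ND5 and ND6, complex I subunits encoded next to each other on opposite strands, were the long genes called. ND6 was at 489.6 and 548 CPM in the hyperosmotic controls, at 415 and 365 CPM in the libraries labelled Nfat5-1-siRNA and at 309 and 273 CPM in those labelled Nfat5-2-siRNA. With Nfat5-2-siRNA ND6 changed by -0.83 ± 0.15 (edgeR adjusted p = 0.0140), and with Nfat5-1-siRNA by -0.41 ± 0.15 (edgeR adjusted p = 0.775). ND5 was at 1741 and 2215 CPM in the hyperosmotic controls, at 1495 and 1493 CPM with Nfat5-1-siRNA and at 1155 and 1209 CPM with Nfat5-2-siRNA. Its log2 fold changes were -0.40 ± 0.16 and -0.74 ± 0.16 (edgeR adjusted p = 1 and adjusted p = 0.0443). For both genes neither Nfat5-siRNA group overlapped with the hyperosmotic controls, although on unscaled totals ND5 with Nfat5-1-siRNA did. Both calls with Nfat5-2-siRNA were lost when any of the 4 libraries was left out, the smallest changes being -0.46 for ND5 and -0.65 for ND6, without replicate 2 of the hyperosmotic controls. Because strand was ignored, reads from the RNA opposite ND6 cannot be told apart from ND6 itself. ND6 is also the known exception to the poly(A) tails, and polyA RNA was measured. Its counts are therefore not the amount of ND6 mRNA in the cells. The ratio of ND6 to ND5 counts was 0.281 and 0.247 in the hyperosmotic controls, 0.278 and 0.245 with Nfat5-1-siRNA and 0.268 and 0.226 with Nfat5-2-siRNA, and it was lower in passage 17 in each group.

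The complex IV and ATP synthase mRNAs were lower with either siRNA without being called in this fit. COX1 was at 16389.7 and 16703 CPM in the libraries labelled Nfat5-1-siRNA and at 12448 and 15485 CPM in those labelled Nfat5-2-siRNA, below the 17433 and 24555 CPM of the hyperosmotic controls. COX2 was at 3722 and 3592 CPM with Nfat5-1-siRNA and at 3805 and 4320.15 CPM with Nfat5-2-siRNA. COX3 was at 6642 and 6673 CPM with Nfat5-1-siRNA and at 5971 and 6621 CPM with Nfat5-2-siRNA. On this scale all 3 complex IV mRNAs were below both libraries of the hyperosmotic controls. On unscaled totals COX2 and COX3 remained below both controls with Nfat5-1-siRNA and none of the 3 did with Nfat5-2-siRNA. The summed share of the complex IV mRNAs, most of it COX1, overlapped with the controls (2.68% and 3.67%) for both siRNAs, at 2.705% and 2.81% with Nfat5-1-siRNA and 2.49% and 2.86% with Nfat5-2-siRNA. ATP8 was at 699 and 623 CPM with Nfat5-1-siRNA and at 747 and 644 CPM with Nfat5-2-siRNA. ATP6 was at 4735 and 4625 CPM with Nfat5-1-siRNA and at 5132 and 5142 CPM with Nfat5-2-siRNA. The ATP synthase mRNAs were also below both control libraries on this scale. Of the unscaled totals they took 0.609% and 0.767% in the controls, 0.549% and 0.547% with Nfat5-1-siRNA and 0.659% and 0.626% with Nfat5-2-siRNA, which overlapped for the second siRNA. The remaining complex I mRNAs were ND1 at 1817 and 1791 CPM with Nfat5-1-siRNA and at 1910.2 and 1971 CPM with Nfat5-2-siRNA, which overlapped with the controls only for the second siRNA, and ND2 at 1219 and 1108 CPM and at 1457 and 1344 CPM, which did so too. ND4L was at 449 and 461 CPM with Nfat5-1-siRNA and at 407 and 411 CPM with Nfat5-2-siRNA, and ND4 at 2849.6 and 2905 CPM and at 2622 and 2654 CPM. Both were below the controls with either siRNA. Counted over the 15 long genes, 13 lay below both control libraries with Nfat5-1-siRNA, beside 32.9% of all genes tested, and 11 with Nfat5-2-siRNA, beside 32.1%. On unscaled totals these were 7 genes (12S rRNA, 16S rRNA, COX2, COX3, ATP8, ATP6 and ND6), beside 24.2%, and 3 genes (ND4, ND5 and ND6), beside 20.1%.

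ND3, CYTB and the rRNAs, which had the lower values at 500 mOsm, did not move together with the Nfat5-siRNAs. ND3 was at 348 and 379.7 CPM with Nfat5-1-siRNA and at 398 and 454 CPM with Nfat5-2-siRNA, overlapping with the controls. CYTB was at 622 and 598 CPM and at 708 and 683 CPM, within the range of the controls, with log2 fold changes of -0.08 ± 0.17 and 0.11 ± 0.17 (edgeR adjusted p = 1 for both). 12S rRNA was at 577 and 491 CPM with Nfat5-1-siRNA (log2 fold change -0.87 ± 0.26, edgeR adjusted p = 0.323) and at 764 and 759 CPM with Nfat5-2-siRNA (-0.36 ± 0.26, edgeR adjusted p = 1). 16S rRNA was at 748 and 611 CPM with Nfat5-1-siRNA (-0.73 ± 0.29, edgeR adjusted p = 0.963) and at 862 and 839 CPM with Nfat5-2-siRNA (-0.41 ± 0.28, edgeR adjusted p = 1). On this scale the rRNAs were below both controls with either siRNA, and lower with Nfat5-1-siRNA than with Nfat5-2-siRNA. On unscaled totals the rRNA share with Nfat5-2-siRNA overlapped with that of the controls (exact permutation p = 1).

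With the passage as a block more of these genes were called, in an edgeR fit that made little use of the spread of each gene. For Nfat5-1-siRNA, 5 long genes were called lower (12S rRNA, 16S rRNA, COX2, ATP8 and ATP6) beside 11.9% of all genes, with edgeR adjusted p from 9.93e-06 for 12S rRNA to 0.0308 for ATP8. For Nfat5-2-siRNA, 6 long genes were called lower (COX1, COX3, ND4L, ND4, ND5 and ND6) beside 15.3% of all genes, with edgeR adjusted p from 4.17e-07 for ND6 to 0.0140 for ND4L. DESeq2 with the block called the same 6 for Nfat5-2-siRNA, beside 12.5% of all genes called lower, and COX2, ATP8, ATP6 and COX3 for Nfat5-1-siRNA, beside 9.66%. These falls are relative to the bulk of the genes. TMM raised the scaled totals of the libraries labelled Nfat5-siRNA (factors 1.01 to 1.12) against those of the hyperosmotic controls (0.883 and 0.908). On unscaled totals the median of the 13 mRNA genes was -0.19 with Nfat5-1-siRNA and -0.10 with Nfat5-2-siRNA. The median of all genes tested was 0.095 and 0.25, and the number of mRNA genes with a negative value was 12 and 9. No long gene was called in that fit, which called only 578 and 742 of the 19835 genes tested lower. When the libraries were scaled to the summed long genes instead, no mitochondrial gene was called with either siRNA, in a fit that called only 1.49% and 1.75% of all genes lower. With this scaling and the passage block together, tRNA-Ala and tRNA-Cys were called lower with Nfat5-2-siRNA, beside 3.93% of all genes, and no other mitochondrial gene was called with either siRNA.

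The tRNA genes that fell with Nfat5-2-siRNA were neighbours on the minus strand between ND2 and COX1. tRNA-Ala was at 46.6 and 70.1 CPM in the hyperosmotic controls, at 33.6 and 34.7 CPM in the libraries labelled Nfat5-1-siRNA and at 21.6 and 24.9 CPM in those labelled Nfat5-2-siRNA. Its log2 fold change was -1.33 ± 0.21 with Nfat5-2-siRNA (edgeR adjusted p = 0.00446) and -0.77 ± 0.20 with Nfat5-1-siRNA (edgeR adjusted p = 0.168). tRNA-Cys was at 35.8 and 53.0 CPM in the controls, at 25.3 and 27.4 CPM with Nfat5-1-siRNA and at 18.1 and 20.8 CPM with Nfat5-2-siRNA, where it changed by -1.19 ± 0.21 (edgeR adjusted p = 0.0102). tRNA-Tyr was at 17.8 and 30.02 CPM in the controls, at 13.4 and 15.2 CPM with Nfat5-1-siRNA and at 9.59 and 10.8 CPM with Nfat5-2-siRNA, where it changed by -1.23 ± 0.24 (edgeR adjusted p = 0.0215). For these 3 genes the controls were highest, Nfat5-1-siRNA intermediate and Nfat5-2-siRNA lowest, with no overlap between the 3 groups on this scale. On unscaled totals tRNA-Tyr with Nfat5-1-siRNA overlapped with the controls. tRNA-Asn, the fourth gene of the cluster, was at 32.9 and 55.4 CPM in the controls, at 24.5 and 25.98 CPM with Nfat5-1-siRNA and at 17.9 and 26.2 CPM with Nfat5-2-siRNA, a change of -0.999 ± 0.26 that missed the threshold (edgeR adjusted p = 0.138). tRNA-Ser(UCN) was at 136.6 and 198.2 CPM in the controls, at 109.9 and 105.6 CPM with Nfat5-1-siRNA and at 97.9 and 109.3 CPM with Nfat5-2-siRNA (-0.69 ± 0.24, edgeR adjusted p = 0.472). Replicate 2 of the hyperosmotic controls was the higher control for all 5, and without it none was called, with -0.91 for tRNA-Ala, -0.79 for tRNA-Cys and -0.71 for tRNA-Tyr. Without replicate 1 of Nfat5-2-siRNA none was called either, and without its replicate 2 tRNA-Ala alone was (-1.44, edgeR adjusted p = 0.0468).

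**Figure D5:**
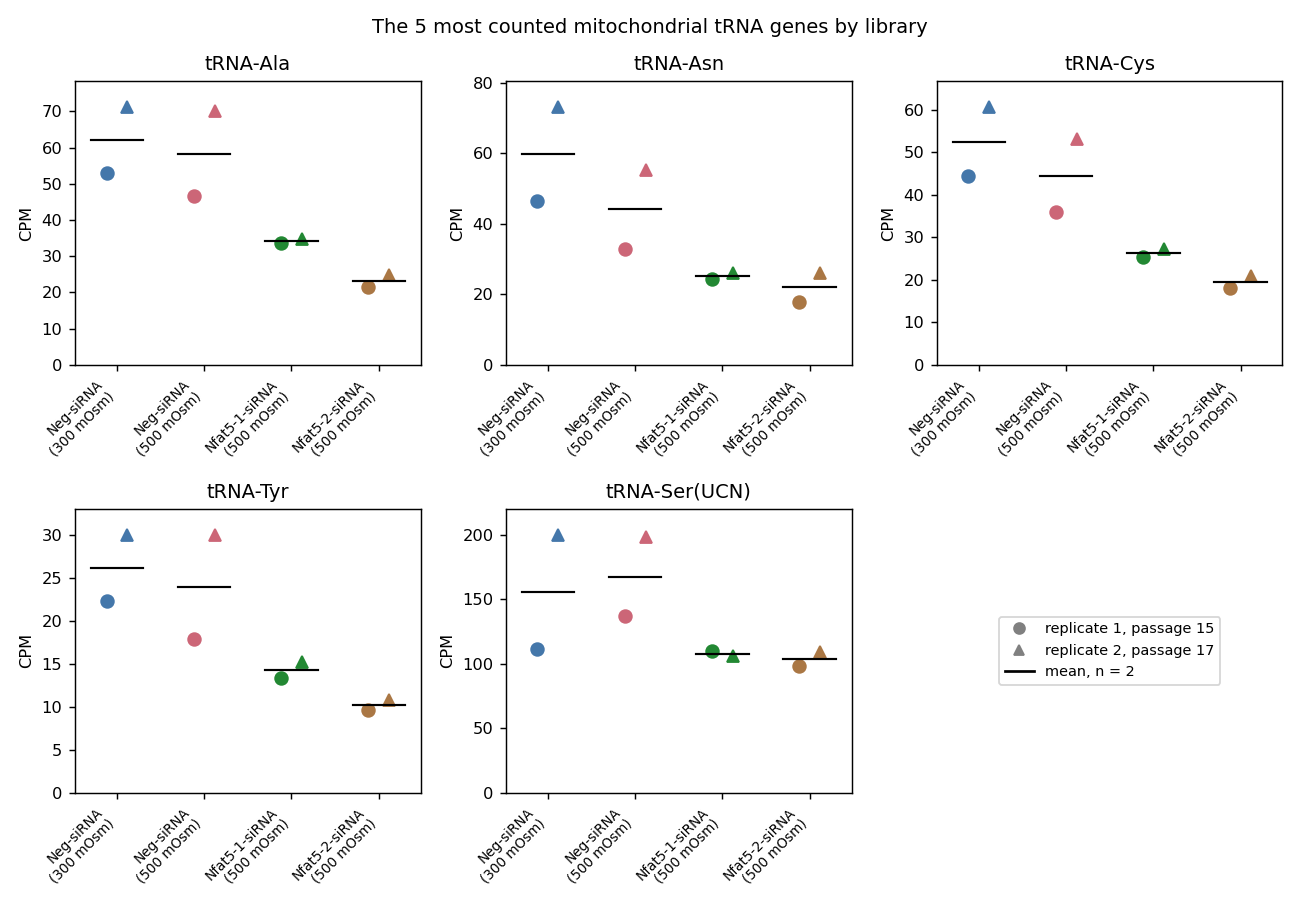
CPM of the 5 most counted mitochondrial tRNA genes in each of the 8 libraries. Circles are replicate 1 (passage 15), triangles replicate 2 (passage 17) and bars the mean of 2 libraries. tRNA-Ala falls from 46.6 and 70.1 CPM in Neg-siRNA (500 mOsm) to 21.6 and 24.9 CPM with Nfat5-2-siRNA, and the control libraries of passage 17 are the highest.

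With the passage block, all 5 of these tRNA genes were called lower with either siRNA, in fits that called 11.9% of all genes lower with Nfat5-1-siRNA and 15.3% with Nfat5-2-siRNA. The edgeR adjusted p ran from 7.33e-05 for tRNA-Ala to 0.00348 for tRNA-Tyr with Nfat5-1-siRNA. With Nfat5-2-siRNA the edgeR adjusted p ran from 1.41e-12 for tRNA-Ala to 0.000232 for tRNA-Ser(UCN). tRNA-Glu and tRNA-Pro were called lower in addition with Nfat5-2-siRNA, by -0.78 ± 0.22 and -0.82 ± 0.18 (edgeR adjusted p = 0.0273 and adjusted p = 0.00113), and are named after their values were seen. All 7 called with the block lie on the minus strand. None of the 14 plus-strand tRNA genes, whose median count per library was 175 or less, was called with either siRNA in either edgeR fit with Benjamini-Yekutieli adjustment. With Benjamini-Hochberg adjustment, which called 15.3% of all genes lower, 1 of them was called lower with Nfat5-2-siRNA. It was tRNA-Leu(CUN) (ENSCAFG00000022738, bases 11708 to 11777), named after its values were seen, with 42 and 49 counts in the hyperosmotic controls, 36 and 21 with Nfat5-1-siRNA and 17 and 21 with Nfat5-2-siRNA. Its log2 fold change with Nfat5-2-siRNA was -1.39 ± 0.48 (edgeR adjusted p = 0.483). The ratio of tRNA-Ala to COX1 counts, chosen after its values were seen, was 0.00267 and 0.00286 in the hyperosmotic controls, 0.00205 and 0.00208 with Nfat5-1-siRNA and 0.00173 and 0.00161 with Nfat5-2-siRNA, so that tRNA-Ala was lower relative to COX1 too. At 300 mOsm this ratio was 0.00337 and 0.00324.

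Nfat5-2-siRNA was compared with Nfat5-1-siRNA directly. Among all genes tested, 8 were called, 0.0403% of the total, and none of them was mitochondrial (3 mitochondrial genes had an unadjusted p under 0.05, beside 14.9% of all genes). DESeq2 called none of the 37 either, beside 188 of 19835 genes tested (0.948%). tRNA-Ala was lower with Nfat5-2-siRNA by -0.55 ± 0.20 (edgeR adjusted p = 1), and ND6 by -0.42 ± 0.15 (edgeR adjusted p = 1). With the passage block tRNA-Ala was called lower (-0.56 ± 0.14, edgeR adjusted p = 0.0324) beside 2.55% of all genes, and DESeq2 with the block did not call it. That ND5, ND6 and the tRNAs were called with Nfat5-2-siRNA and not with Nfat5-1-siRNA is therefore not shown to be a difference between the siRNAs, other than for tRNA-Ala in that blocked fit.

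Passages 15 and 17 differed within the groups. COX1 was higher in passage 17 in all 4 groups, with ratios of passage 17 to passage 15 of 1.40 in the isosmotic controls, 1.41 in the hyperosmotic controls, 1.02 with Nfat5-1-siRNA and 1.24 with Nfat5-2-siRNA. In the hyperosmotic controls all 15 long genes were higher in passage 17, with ratios between 1.12 for ND6 and 1.41 for COX1. In the libraries labelled Nfat5-1-siRNA the long genes stayed between 0.82 for 16S rRNA and 1.09 for ND3. Both siRNAs were compared with that control group, so these differences between its libraries enter both comparisons.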

How the data were processed

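RNA-seq of MDCK I cells was analysed from the gene counts that the authors deposited, made per the file headers and the submitters' processing notes with HISAT2 2.0.5, CanFam 3.1, featureCounts 1.5.1 and Ensembl annotation 92. Strand was ignored, mates of a pair were counted separately, and reads on several genes or positions were left out. The table holds 0 columns that match no sample. The 8 libraries were grouped by the labels.

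The 19835 genes whose counts summed to 5 or more were tested with edgeR 4.0.16 (R 4.3.3), TMM and the quasi-likelihood test over all 8 libraries with group as the only term. Tests were two-sided with Benjamini-Yekutieli adjustment over all genes at 0.05. SE is the log2 fold change divided by the root of F. Shares were compared by exact permutation (scipy 1.17.1) with Wilson 95% intervals, which cover counting error only. Mates are not independent molecules. The steps were tested on simulated data.

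Replicate numbers mark passages in the labels and so pair the libraries. Deviations from the group means correlated at 0.124 to 0.470 over the 6 pairs of groups (12424 genes averaging 1 CPM or more). In the fit with the passage block the median prior degrees of freedom were 107.8, against 9.19 without it, so that fit made little use of the spread of each gene.

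All long genes were named, with the 5 most counted tRNA genes and any tRNA gene called without the block. Genes and lists were chosen with earlier results of these data known. Of 233 genes in lists of nuclear mitochondrial genes, 7 (3.00%) could be paired with an identifier, and of 26 cell type markers 1 (3.85%), so counts over these lists are void. Alternatives were other scalings, filters and adjustments, DESeq2 1.42.0, the passage block, fewer libraries and leaving out each library. Counts of genes whose groups do not overlap, on TMM-scaled and unscaled totals, were added after the data were seen. Where a library was left out, the other one of its group was assumed to vary like the other groups.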

Additional observations from a re-analysis of the deposited data

How the results depend on the processing

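None of the 8 pairs of a named gene and a comparison called in the main test changed direction, while 29 of the 72 not called took both signs over the alternatives. For the 27 pairs called under at least 1 setting, of 432 values under the alternatives 325 kept their direction and side of the threshold, 59 became called and 48 were no longer called. For hyperosmolality, the 3 long genes called lower became 1 with scaling to the long genes, with filterByExpr and with only the 4 libraries compared, and 0 to 3 without single libraries. CYTB was called lower too under other settings, among them Benjamini-Hochberg adjustment and the replicate block in edgeR or DESeq2. The rRNAs were not called with that block in DESeq2. tRNA genes called lower went from 0 to 1 on library totals without TMM, without a filter, with DESeq2 and with Benjamini-Hochberg adjustment. They also went to 1 with the replicate block, alone or with scaling to the long genes or DESeq2. With the replicate block alone, 1 was called higher. For hyperosmolality, 1831 of all genes were called lower in the main fit. They became 1095 with scaling to the long genes, 1710 with filterByExpr and 1550 with only the 4 libraries. They were 2346 on library totals, 2434 without a filter, 2285 with DESeq2 and 3324 with Benjamini-Hochberg. With the replicate block they were 3125, with it and scaling to the long genes 1961, and with it in DESeq2 2803. For Nfat5-1-siRNA, long genes called lower went from 0 to 2 without a filter and 2 with Benjamini-Hochberg. They became 5 with the replicate block and 4 with that block in DESeq2. In the same order, tRNA genes called lower went from 0 to 3, 4, 5 and 4. All genes called lower went from 898 of 19835 to 1634 of 23048, and then to 2226, 2358 and 1916 of 19835. For Nfat5-2-siRNA, the 2 long genes became 1 with DESeq2 size factors or filterByExpr, 0 on library totals, with scaling to the long genes (with or without the block) or with only the 4 libraries, 5 with Benjamini-Hochberg and 6 with the block in edgeR or DESeq2, and 0 to 0 without single libraries. The 3 tRNA genes became 1 on library totals, 0 with scaling to the long genes, 6 without a filter, 8 with Benjamini-Hochberg, 7 with the replicate block and 6 with it in DESeq2, and 0 to 3 without single libraries. For Nfat5-2-siRNA, 1464 of all genes were called lower in the main fit. They became 1297 with DESeq2 size factors, 1288 with filterByExpr, 742 on library totals and 833 with only the 4 libraries. Scaling to the long genes gave 347, or 780 with the block. Benjamini-Hochberg gave 3043, no filter 2200, the replicate block 3044 and that block in DESeq2 2484. Between the siRNAs, tRNA genes called lower went from 0 to 1 with the replicate block, while all genes called lower went from 2 to 505. The share of all mitochondrial genes differed between the siRNAs by 0.113 points on library totals and by -0.185 points on TMM-scaled totals, and by -0.0349 to 0.260 points without single libraries. The ratio of median tRNA to median mRNA level went from 0.0116 per kilobase to 0.0413 per position of a whole read. The causes were not tested.

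Over all genes, edgeR called 4077, 1572, 2390 and 8 in the 4 comparisons (hyperosmolality, Nfat5-1-siRNA, Nfat5-2-siRNA, and the siRNAs against each other). Counts further than 1.5 times from these were 7033, 4033, 5250 and 186 with Benjamini-Hochberg, 6566, 4264, 5168 and 979 with the replicate block, 2466 (Nfat5-1-siRNA) and 188 (between siRNAs) with DESeq2, 2866, 3760 and 337 (the last 3 comparisons) without a filter, and 1565 (Nfat5-2-siRNA) and 0 (between siRNAs) with only the 4 libraries. The replicate block with DESeq2 called 3632, 4443 and 608 and with scaling to the long genes 4105, 4618 and 403 in the last 3 comparisons. Between the siRNAs, DESeq2 size factors gave 34, library totals 31, scaling to the long genes 42 and filterByExpr 0. Without single libraries the 4 counts ran from 2384 to 2672, 159 to 680, 952 to 1280 and 0 to 3. Library totals without TMM turned 674 higher and 898 lower into 1313 and 578 for Nfat5-1-siRNA, 926 and 1464 into 1971 and 742 for Nfat5-2-siRNA, and 2246 and 1831 into 1858 and 2346 for hyperosmolality. Scaling to the long genes gave 1134 and 296 for Nfat5-1-siRNA and 1757 and 347 for Nfat5-2-siRNA (with the block 3341 and 764, and 3838 and 780). Of the 14 plus-strand tRNA genes, 3 had a median of at least 100 counts.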

Other observations

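Of the nuclear genes for mitochondrial proteins, 7 could be named, all through a list that the study chose on these samples, so their directions are not independent evidence. The list is described as genes that rise with hyperosmolality and fall with both siRNAs, but in these libraries 547 of its 989 identifiers had a higher mean at 500 mOsm than at 300 mOsm and 442 a lower one, among them 4 of the 7. MRPS6, a protein of the small subunit of the mitochondrial ribosome, rose from 10.6 and 12.9 CPM in Neg-siRNA (300 mOsm) to 291 and 294 CPM in Neg-siRNA (500 mOsm), and was at 124 and 107 CPM in the libraries labelled Nfat5-1-siRNA and at 101.4 and 102 CPM in those labelled Nfat5-2-siRNA. Its log2 fold change was 4.64 for hyperosmolality (edgeR adjusted p = 5.89e-08). Against the hyperosmotic controls it was -1.34 for Nfat5-1-siRNA and -1.53 for Nfat5-2-siRNA (edgeR adjusted p = 0.000771 and adjusted p = 0.000184). SLC5A3, an osmolyte carrier that the paper lists as regulated by NFAT5, had the same directions. Its level was at most 0.31 CPM in the isosmotic controls and at least 11.9 CPM in the hyperosmotic controls. With the Nfat5-siRNAs it ranged from 3.4 to 7.3 CPM. Whether the rise of MRPS6 is tied to that of SLC5A3 or to the mitochondrial ribosome was not tested. MRPL1, of the large subunit, rose by 1.07 on the log2 scale with hyperosmolality (edgeR adjusted p = 0.00393), and changed by -1.07 and -1.37 with the siRNAs (edgeR adjusted p = 0.0111 and adjusted p = 0.00142). NDUFV2, a nuclear subunit of complex I, rose by 1.12 with hyperosmolality (edgeR adjusted p = 0.00122), while NDUFB3, another subunit of complex I, changed by -1.43 (edgeR adjusted p = 0.00147). FASTKD3, of a family of mitochondrial RNA-binding proteins, and MTIF2, a mitochondrial translation initiation factor, changed by -1.05 and -1.11 with hyperosmolality (edgeR adjusted p = 0.00327 and adjusted p = 0.00238). They rose with Nfat5-2-siRNA by 1.34 and 1.16 (edgeR adjusted p = 0.00119 and adjusted p = 0.00336) and with Nfat5-1-siRNA by 1.01 and 0.83 (edgeR adjusted p = 0.0120 and adjusted p = 0.0457). MRPL2, of the large ribosomal subunit, changed by -0.70 with hyperosmolality (edgeR adjusted p = 0.0341). With Nfat5-2-siRNA NDUFB3 and MRPL2 changed by -1.06 and -0.75 (edgeR adjusted p = 0.0250 and adjusted p = 0.0356), and with Nfat5-1-siRNA by -0.99 and -0.69, which missed the threshold (edgeR adjusted p = 0.0508 and adjusted p = 0.0802). NDUFV2 changed by -0.64 and -0.65 with Nfat5-1-siRNA and Nfat5-2-siRNA and was not called (edgeR adjusted p = 0.128 and adjusted p = 0.0862). Of the cell type markers, only PDGFRA, a marker of fibroblasts, could be named, through the same list, so its values are a description and say nothing of the other markers. Its log2 fold change was 0.86 for hyperosmolality, -0.94 for Nfat5-1-siRNA and -1.004 for Nfat5-2-siRNA.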
